A study of Homo sapiens with 6 samples.

Results

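The comparison described here sets the first of 2 short hairpin RNAs (shRNAs) against ZRSR2 beside a control shRNA in K562 cells, a human leukaemia line with erythroid and megakaryocytic features. It used the 2 libraries labelled ZRSR2_sh1 (sh1) and the 2 labelled Con_sh (control), 4 of the 6 libraries of the series, each group holding an experiment 1 and an experiment 2. All cells were transduced and grown in RPMI-1640 with serum, so the control cells also carried an shRNA. The labels name no other treatment or genotype, and polyA-selected RNA was sequenced. Of 241593 introns listed for every library, 133892 had at least 20 reads on average over the 4 libraries, and these were tested.

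ZRSR2 is a protein of the minor spliceosome, the machinery that removes U12-type introns. These are a small class of introns with their own splice-site and branch-point sequences, found mostly as a single intron among many ordinary introns of a gene, in genes of signalling, DNA repair, transport and RNA processing. ZRSR2 contacts the 3′ splice site during recognition of such introns, and mutations of the gene occur in myelodysplastic syndromes. When the minor spliceosome works slowly, U12-type introns tend to stay in polyadenylated RNA, which is read as intron retention. No genome sequence was used here, so the type of an intron was not read from its bases and no splice site is printed.

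The deposited tables gave, for each intron, reads crossing its 5′ and its 3′ boundary with the exon (boundary reads), reads spliced across it, and the share of its bases covered. Retention is the percentage 100 × boundary reads over boundary reads plus 2 × spliced reads. Spliced reads summed to 86235725 and 101120454 in the control libraries and 82986327 and 100088332 in the sh1 libraries, and boundary reads to 4440979, 4745918, 4601107 and 4387311 in the same order. The order control experiment 1, control experiment 2, sh1 experiment 1, sh1 experiment 2 holds wherever 4 values are given below. The labels do not say whether experiments were separate cultures, so p-values measure the spread between these samples, which may be technical. The 14 erythroid markers of K562 were all detected, and their summed level ranged from 5727 to 8648 CPM (counts of spliced reads scaled to a common library total) in the control and from 7496 to 15879 CPM in sh1, with experiment 1 of sh1 above the other 3 libraries. The sum of 5 megakaryocytic markers was 45.3 and 44.8 CPM in the control and 100.6 and 84.8 CPM in sh1, nearly all of it ITGA2B, the integrin chain of platelets. The corresponding sums were 169 to 180 and 168 to 244 CPM for 6 lymphoid markers, 52.3 to 57.1 and 41.95 to 72.4 CPM for 5 myeloid markers, and 648 to 1149 and 782 to 817 CPM for 6 epithelial or stromal markers. Of these other markers MS4A1, MPO, CD14, PF4 and ALB stood below 1 CPM in every library, while others were well detected, among them PTPRC at 90.9 to 208 CPM, CD3D at 25.8 to 70.5 CPM, LYZ at 25.1 to 38.8 CPM and KRT8 at 341 to 710 CPM. No marker was at 0 in all 4 libraries. What part these markers had in the results below was not tested.

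ZRSR2 RNA was lower in both sh1 libraries than in both control libraries. The 10 of its introns that do not overlap had 2218 and 2173 spliced reads in the control and 825 and 983 in sh1. Scaled for depth this was 28.2 and 23.8 CPM in the control (mean 26.0 ± 3.09, SD, n = 2) and 10.9 and 10.9 CPM in sh1 (mean 10.9 ± 0.0255). The groups did not overlap, and the log2 fold change was -1.26 (SE 0.212). edgeR's quasi-likelihood test gave an unadjusted p of 0.000672 and an adjusted p of 0.718 over 17160 genes, while DESeq2 gave an adjusted p of 5.35e-05. In bulk RNA, fewer cells with the transcript and less transcript per cell cannot be told apart. All 11 tested introns of ZRSR2 itself had an edgeR adjusted p of 1. The highest retention among them, in the intron at chromosome X, 15791014 to 15799871, was 5.84, 3.99, 13.6 and 7.69%, from 32, 23, 23 and 25 boundary reads.

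Retention rose in 393 of the 133892 introns and fell in 14 by edgeR's quasi-likelihood test at an adjusted p of 0.05. These are 0.294% and 0.0105% of the introns tested, and 5493 (4.10%) had an unadjusted p under 0.05. Both sh1 libraries lay above both control libraries in 390 of the 393, against 15.0% of all tested introns. The exceptions were ARPC5L, AZIN1 and RPS2, an overlap noticed after the values were seen. The introns were called from these same libraries, so this separation, like other rises within the 393, follows largely from the call. The median retention of the 393 introns was 2.26 and 2.17% in the control libraries and 25.2 and 10.7% in the sh1 libraries. Tested introns that were not called had medians of 1.18, 1.33, 1.41 and 1.23%. The median log2 fold change was 2.88 over the 393 introns, between 1.42 and 9.28, and 0.02 over all tested introns. With the experiment number as a block, 517 introns rose and 49 fell. Introns in general thus lay at a similar low level in the 4 libraries. The called introns, picked for a change, were a small group with medians well above that level in sh1.

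**Figure D1:**
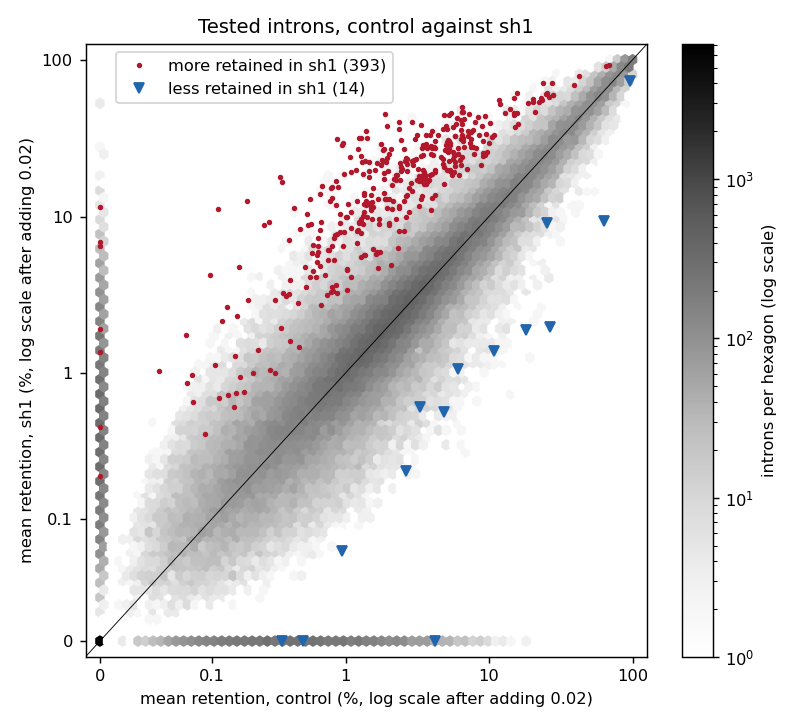
Mean retention of each tested intron in the 2 control libraries (x axis, percent) against that in the 2 sh1 libraries (y axis, percent), both on a log scale after adding 0.02. Grey hexagons count introns, red points are the 393 introns more retained in sh1 and blue triangles the 14 less retained, and the line marks equal retention.

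The spread of these calls was read mainly from the trend over introns. With 2 libraries a group, edgeR borrowed all of the spread of an intron from introns of like depth, so an intron that varied more than its peers was not penalised. In limma on log2 ratios of boundary to spliced reads, chosen after seeing the data, the own spread of each intron counted in part. It was shrunk towards the trend with 4.10 prior degrees of freedom. Here 0 introns passed at a limma adjusted p of 0.05, and the lowest adjusted p was 0.743. In limma, 6643 introns (4.96%) had an unadjusted p under 0.05, among them 379 of the 393, and all 393 had a positive change. DESeq2 called 154 introns more retained, all of them among the 393, and 6 less retained.

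Introns spliced almost completely in the control were called less often (0.178%) than all tested introns (0.294%). A mean control retention below 1% was found in 57929 of the 133892 tested introns and in 103 of the 393 called. The median of these 103 rose from 0.527 to 5.15%. Another 184 stood between 1 and 5% in the control, with a median of 2.26% in the control and 17.6% in sh1. For 89 introns between 5 and 20% the medians were 6.63 and 31.5%, and for 17 introns at 20% or above they were 25.5 and 60.0%. The called share of tested introns in these 4 classes was 0.178, 0.381, 0.464 and 0.201%. Mean retention in sh1 reached at least 10% in 277 of the introns, at least 25% in 126 and at least 50% in 21, against 33, 9 and 2 in the control.

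The gain was larger in experiment 1 than in experiment 2 for nearly every more retained intron. The median gain of sh1 over the control of the same experiment was 21.2 percentage points in experiment 1 and 7.86 in experiment 2. It was larger in experiment 1 in 386 of the 393 introns (98.2%), against 55.9% of introns not called, and it was above 0 in both experiments in 392. The gain in experiment 2 was a median 0.388 of that in experiment 1, with an interquartile range of 0.303 to 0.485. The control libraries differed in the same direction but far less: experiment 1 was the higher control in 219 of the 393 (55.7%), against 43.1% of introns not called. ZRSR2 RNA stood at 10.9 CPM in both sh1 libraries, while the erythroid marker sum was 15879 CPM in sh1 experiment 1 and 7496 CPM in sh1 experiment 2. What part that difference had was not tested. Leaving out sh1 experiment 1 left 123 introns more retained, of which 119 were among the 393. Leaving out sh1 experiment 2 gave 492, of which 386 were shared. Without control experiment 1 or 2 the counts were 276 and 241, and 114 of the 393 passed whichever single library was left out.

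**Figure D2:**
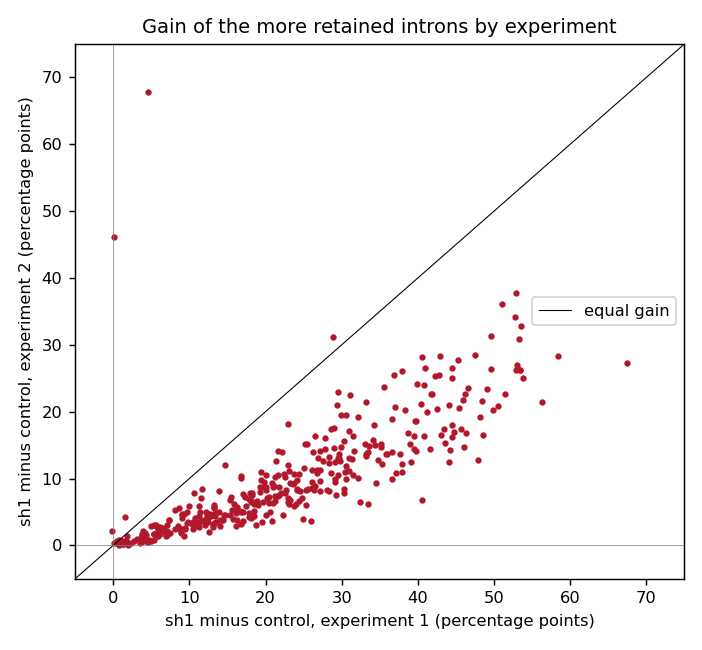
Gain in retention of the 393 more retained introns, sh1 minus control in percentage points, in experiment 1 (x axis) and experiment 2 (y axis). The line marks equal gain, and the gain was larger in experiment 1 for 386 of the points, with median gains of 21.2 and 7.86.

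Reads filled most of the retained introns from end to end. The mean covered share of the 393 introns was 91.7 and 93.3% in the control and 99.1 and 98.7% in sh1, and 271, 281, 368 and 356 of them were covered completely. In introns not called the mean covered share was 56.4, 58.5, 60.1 and 58.5%. Reads at the 5′ boundary summed to 15572 and 17203 in the control and 91420 and 50241 in sh1, and those at the 3′ boundary to 14092, 14845, 84703 and 45096. Of the boundary reads of these introns, the 3′ boundary held 47.5, 46.3, 48.1 and 47.3%, so its share moved by less than 2 percentage points while the reads rose at both ends. Summed over the libraries of a group and set against spliced reads, the reads of each boundary were higher in sh1 in 392 of the 393. Median length was 1205 nt (interquartile range 576 to 2387) for the 393 introns and 1507 nt (473 to 4123) for introns not called. Introns under 200 nt were 38 of the 393 (9.67%) and 13.1% of the others, and introns under 10000 nt were 382 (97.2%) and 88.9%. The more retained introns also had more reads, with a median of 764 against 246.5, and depth affects which introns can pass.

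The 393 introns formed 368 separate loci in 309 named genes, which is 2.26% of the 13691 genes with a tested intron, and 5 of the introns had no gene name. The 14 less retained introns lay in 12 named genes (0.0876%). A single locus was held by 258 of these genes and 2 loci by 47. At least 3 were held by 4 genes, among them ARPC5L, ASNS and KIFAP3, which encode an actin-branching complex subunit, asparagine synthetase and an adaptor of the kinesin-2 motor. The genes had a median of 14 tested introns. Their 4488 other introns had median retentions of 0.971, 1.10, 1.12 and 1.01%, and 2 of them fell. Retention thus rose at 1 or a few introns of a gene, while the medians of its other introns in sh1 lay close to those in the control.

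The intron next to a more retained one was itself more retained more often than introns in general. Among introns directly upstream, 46 of 335 (13.7%) were called, and among those directly downstream 47 of 322 (14.6%). A pair of adjacent called introns can count in both shares, once from each side, so these shares are not separate results. Introns 2 positions away were called in 2 of 298 and 2 of 295 cases (0.671 and 0.678%), against 0.294% of all tested introns. Median retention directly upstream was 1.09, 1.21, 1.53 and 1.40%, and directly downstream 1.28, 1.24, 2.49 and 1.78%. At 2 positions downstream the medians were 1.11, 1.11, 1.27 and 1.02%. The medians therefore rose most at the called intron and, at a far lower level, at its direct neighbours. An unadjusted edgeR p under 0.05 was found in 26.9% of introns directly upstream and 37.3% directly downstream. At 2 positions upstream and downstream the shares were 9.06 and 9.49%, against 4.10% of all tested introns.

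**Figure D3:**
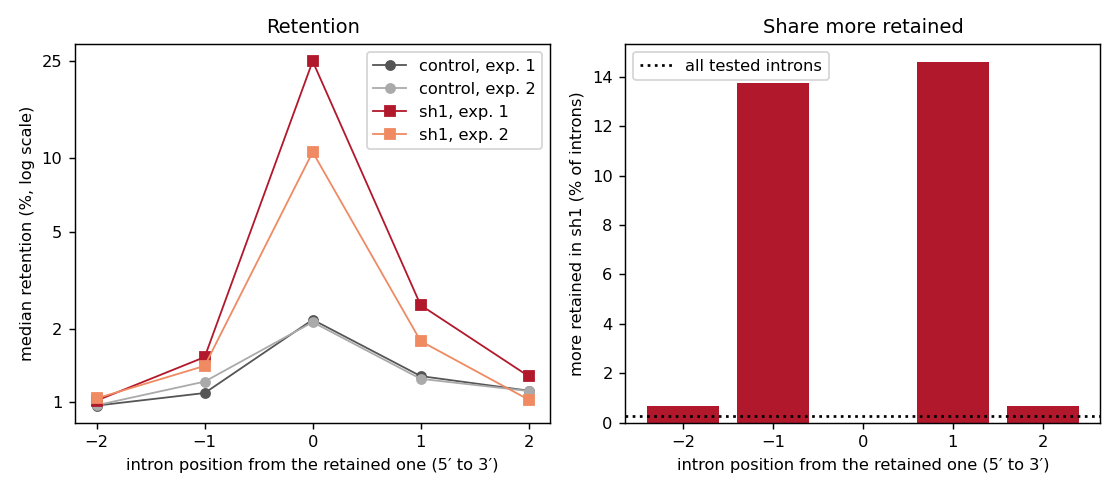
Left, median retention (percent, log scale) of introns by their position from a more retained intron, in transcript order, for each of the 4 libraries. Right, the share of introns at each other position that was itself more retained (percent), with a dotted line at the 0.294% of all tested introns. The bars directly beside the retained intron reach 13.7 and 14.6%, and a pair of adjacent called introns can count in both.

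Chromosome positions below are those of the deposited tables with starts counted from 1. The submitters' notes name the build hg19, but 95.6% of the introns lie inside a RefSeq gene of GRCh38 as given and 62.6 or 62.9% when moved by 100 kb, so the positions are taken as GRCh38. Each named feature is an intron as the tables list it. Those named in MAPK8, EXOSC1, RPS2, C5orf34 and LOC105377460 overlap another listed intron, with which they can share spliced reads. The same holds for the unnamed intron of the beta-globin locus. The 25 introns with the smallest adjusted p, 1 per gene, all kept their call when any single library was left out.

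ZNF207, which binds spindle microtubules in mitosis, held the intron with the smallest adjusted p. Its intron of 113 nt at chromosome 17, 32351630 to 32351742, was retained at 0.265, 0.245, 12.5 and 5.18%. Boundary reads went from 29 and 39 in the control to 1900 and 887 in sh1, while spliced reads were 5451, 7931, 6671 and 8121 (log2 change 5.11 ± 0.393 SE, edgeR adjusted p = 1.57e-33). Both sh1 libraries stood far above both controls, and sh1 experiment 1 was the highest. The intron before it, at 32350327 to 32351464, had a retention of 1.26, 1.66, 31.7 and 12.6% (edgeR adjusted p = 5.67e-25), and the other 12 tested introns of ZNF207 were not called.

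Among DNA repair genes, 4 of 30 tested held a more retained intron: PARP1, XRCC5, MSH3 and CHD1L. This is 13.3%, beside 2.26% of all genes with a tested intron. A gene with more tested introns has more chances of a call, and no share of genes given here is adjusted for that. The repair genes held 635 tested introns, of which 4 were called, beside 0.294% of all tested introns. The lists below were chosen with earlier results known, and no difference between a list and the other genes was tested. PARP1 makes the poly(ADP-ribose) chains that mark broken DNA. Its last tested intron of 22, at chromosome 1, 226361542 to 226361968, stood at 1.07, 1.06, 32.6 and 15.2%. Spliced reads across it were 2117, 3452, 1208 and 2713 and boundary reads 46, 74, 1170 and 974 (log2 change 4.77 ± 0.412 SE, edgeR adjusted p = 3.65e-26). The 2 introns before it stayed between 0.334 and 0.756% in all 4 libraries, and the 21 other introns of PARP1 had medians of 0.287, 0.331, 0.420 and 0.231%. XRCC5 encodes the Ku80 subunit that binds DNA ends, and its intron at chromosome 2, 216116843 to 216117745, rose from 1.44 and 0.742% to 16.1 and 5.26% (edgeR adjusted p = 7.07e-13). In the mismatch repair gene MSH3, on 52 to 253 spliced reads a library, the intron at chromosome 5, 80672859 to 80674982, stood at 3.19, 2.13, 34.2 and 13.2% (edgeR adjusted p = 0.00292). This intron had 11, 8, 50 and 23 reads at the 5′ boundary and 1, 3, 4 and 6 at the 3′ boundary, so its rise lay mostly at the 5′ end. Its call was lost without control experiment 2 (0.244) or sh1 experiment 1 (1).

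A list of kinases of the MAP kinase and RAF families also included STK11, which belongs to neither family. A more retained intron was held by 8 of its 20 tested genes (40.0%, beside 2.26% of all genes), among them MAPK3, MAPK8, MAPK12, MAPK14, ARAF and STK11. MAPK8 encodes the stress kinase JNK1, and an intron at chromosome 10, 48420321 to 48424087, stood at 1.87, 2.99, 25.6 and 13.6% (edgeR adjusted p = 4.00e-05). Both sh1 libraries stood above both controls, and the call was lost without sh1 experiment 1 (edgeR adjusted p = 0.102). Of 15 tested RAS regulators (6.67% called, beside the same 2.26%) only LZTR1, an adaptor for RAS degradation, was called, at 16.7, 15.1, 45.4 and 32.4% (chromosome 22, 20996113 to 20996695, edgeR adjusted p = 0.00321). The LZTR1 call was lost without control experiment 1 (0.0782), control experiment 2 (0.205) or sh1 experiment 1 (1).

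Among factors of mRNA export and nuclear transport, 11 of 33 tested genes held a more retained intron (33.3%, beside 2.26% of all genes) and 1, DDX39B, a less retained one (0.0876% of all genes). The 11 were THOC2, PCID2, ZC3H4, NCBP1, the importins IPO4, IPO5, IPO9 and IPO11, the related TNPO1, and the exportins XPO5 and XPO7. ZC3H4 was counted in the list although its role, given below, is in transcription. THOC2 is the large subunit of the THO complex, which couples transcription to export. Its intron at chromosome X, 123610964 to 123611439, was retained at 1.71, 2.17, 52.2 and 23.1% (log2 change 4.85 ± 0.449 SE, edgeR adjusted p = 1.12e-22). A separate THOC2 intron, at 123638124 to 123638933, stood at 0.289, 0.0894, 18.7 and 6.54% (edgeR adjusted p = 2.32e-14), and the other 36 tested introns of the gene had medians between 0.128 and 0.256%. NCBP1, the large subunit of the nuclear cap-binding complex, had 0.826, 1.63, 38.5 and 15.3% at chromosome 9, 97653909 to 97654879 (edgeR adjusted p = 1.15e-13). The NCBP1 intron next to it, at 97654945 to 97655701, stood at 1.76, 1.68, 11.8 and 7.63%. ZC3H4, which takes part in ending unproductive transcription, had 0.386, 2.1, 41.6 and 22.0% at chromosome 19, 47081623 to 47082183 (edgeR adjusted p = 1.23e-13), on 2 and 14 boundary reads in the control and 601 and 208 in sh1.

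**Figure D4:**
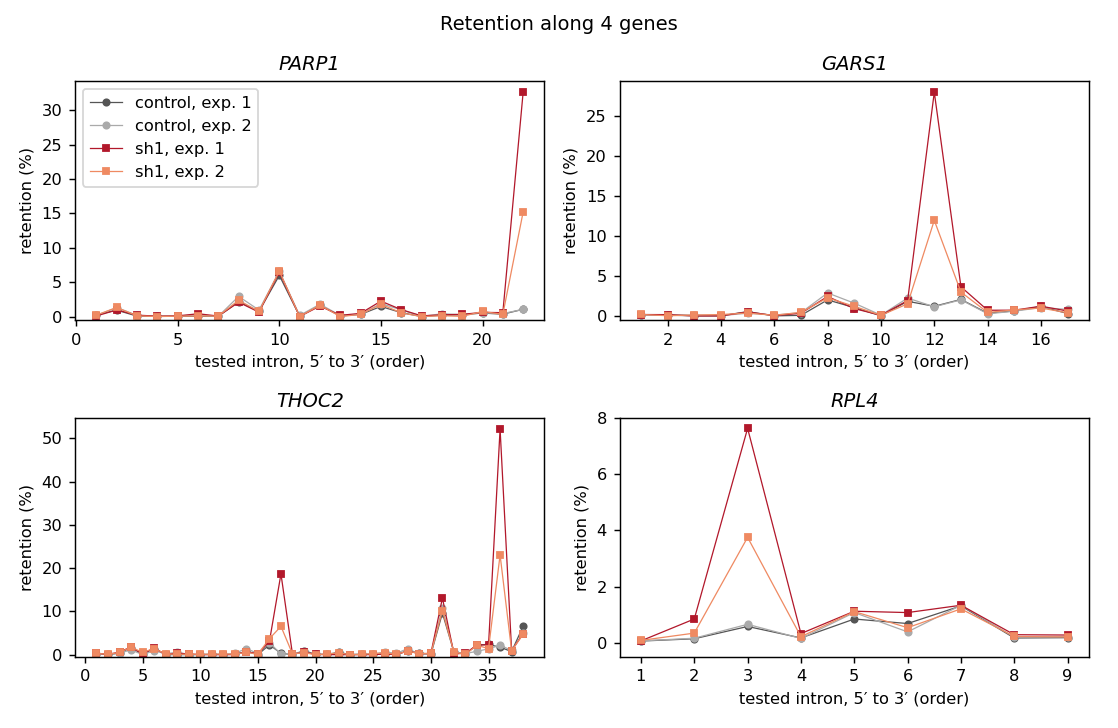
Retention (percent) of every tested intron along PARP1, GARS1, THOC2 and RPL4 in transcript order, with 1 line for each of the 4 libraries. The libraries overlap along most of each gene and part at 1 intron of PARP1 and GARS1 and 2 introns of THOC2 and RPL4.

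In the secretory pathway and endoplasmic reticulum, 6 of 30 tested genes held a more retained intron (20%, beside 2.26% of all genes): SRP68, SRP72, TMEM258, ALG12, ALG3 and UFD1. UFD1 helps extract misfolded proteins for degradation, and its intron at chromosome 22, 19465275 to 19467872, stood at 1.68, 2.02, 30.0 and 15.3%. With 194, 300, 4398 and 2276 boundary reads it was among the most deeply read (log2 change 3.89 ± 0.363 SE, edgeR adjusted p = 2.88e-22). SRP68 is a subunit of the signal recognition particle, which brings new secretory proteins to the membrane. Its intron at chromosome 17, 76070445 to 76072307, stood at 0.179, 0.151, 7.27 and 2.31% (edgeR adjusted p = 9.58e-18). TMEM258 is a subunit of the oligosaccharyltransferase that adds sugar chains. Its intron at chromosome 11, 61789922 to 61790492, stood at 2.22, 3.0, 29.7 and 15.6% (edgeR adjusted p = 4.11e-17), and here spliced reads were lower in both sh1 libraries, at 11362, 8876, 3338 and 5425. SPCS3, a subunit of the signal peptidase outside the list, had 0.941, 0.809, 24.0 and 6.99% at chromosome 4, 176322244 to 176324180 (edgeR adjusted p = 2.41e-16).

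Genes of RNA synthesis and turnover were called too. Of 31 tested genes for RNA polymerases and the Integrator complex 4 were called, POLR2E, POLR3C, INTS7 and INTS8, and of 23 for the RNA exosome and decay 3, EXOSC1, EXOSC2 and UPF1 (12.9 and 13.0%, beside 2.26% of all genes). POLR2E is a subunit shared by the nuclear RNA polymerases, and its intron at chromosome 19, 1089963 to 1090086, stood at 2.24, 2.49, 15.6 and 7.29% (edgeR adjusted p = 3.07e-06). INTS7 and INTS8, subunits of Integrator, stood at 4.85, 5.32, 40 and 20% and at 0.816, 1.94, 19.1 and 6.17% (edgeR adjusted p = 5.62e-05 and 0.00138). EXOSC2, a cap subunit of the exosome, was partly retained in the control, at 14.7 and 11.4%, and reached 55.6 and 35.4% in sh1 at chromosome 9, 130699395 to 130700866 (edgeR adjusted p = 3.71e-06). In UPF1, whose helicase drives the decay of RNA with early stop codons, the values were 1.84, 0.716, 10.9 and 4.77% at chromosome 19, 18853351 to 18854600 (edgeR adjusted p = 2.09e-06). EXOSC1 was close to the threshold at 2.83, 2.46, 15.4 and 4.50% (edgeR adjusted p = 0.0461). All 6 calls were lost without sh1 experiment 1, with edgeR adjusted p of 0.221 for POLR2E, 0.305 for INTS7, 1 for INTS8, 0.132 for EXOSC2, 0.101 for UPF1 and 1 for EXOSC1. Without control experiment 1 those of INTS8 (0.221) and EXOSC1 (0.362) were lost, and without control experiment 2 those of UPF1 (0.0864) and EXOSC1 (0.608).

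E2F6 and E2F3 were the 2 genes called among 13 tested of the E2F family and its partners, a small count, beside 2.26% of all genes. E2F6 is a repressor of cell-cycle genes, and its intron at chromosome 2, 11450127 to 11451650, stood at 2.26, 1.42, 38.0 and 15.1% (edgeR adjusted p = 1.31e-13). E2F3 activates such genes, and its intron at chromosome 6, 20482921 to 20486688, stood at 5.31, 5.29, 34.9 and 19.0% (edgeR adjusted p = 1.54e-06, 0.0766 without sh1 experiment 1). CCNT2 encodes a cyclin of the elongation kinase P-TEFb. The first tested intron of CCNT2, at chromosome 2, 134919013 to 134919809, had the highest sh1 values of the 25 introns, 52.6 and 28.1% against 3.01 and 1.71% in the control (edgeR adjusted p = 1.61e-16).

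Protein synthesis genes with a more retained intron included GARS1, EIF3I and the ribosomal protein gene RPL4. GARS1, the glycyl-tRNA synthetase, had 1.22, 1.16, 27.9 and 11.9% in the 12th of 17 tested introns, at chromosome 7, 30621501 to 30622316 (log2 change 4.26 ± 0.420 SE, edgeR adjusted p = 7.96e-20). The 16 other GARS1 introns had medians of 0.340, 0.391, 0.577 and 0.431%. RPL4 encodes a protein of the large ribosomal subunit and was the most deeply read of these, with 29831, 37482, 23310 and 31211 spliced reads across the intron at chromosome 15, 66502751 to 66503057. Retention there was 0.580, 0.657, 7.64 and 3.75% (log2 change 3.19 ± 0.324 SE, edgeR adjusted p = 1.09e-18). The RPL4 intron before it, at 66503165 to 66503357, rose on a smaller scale, at 0.141, 0.161, 0.846 and 0.343% (edgeR adjusted p = 2.14e-05). EIF3I, a subunit of translation initiation factor 3, had 0.402, 0.303, 4.69 and 1.82% at chromosome 1, 32224122 to 32224409 (edgeR adjusted p = 6.14e-13). RPS2 was the other of 28 tested ribosomal protein genes called (7.14%, beside 2.26% of all genes), with 92.4, 45.3, 92.5 and 91.4% at chromosome 16, 1962271 to 1962735. Its groups overlapped, the low value was that of control experiment 2 alone, and without that library its log2 fold change was -0.07 (edgeR adjusted p = 1). The RPS2 call was also lost without sh1 experiment 1 (edgeR adjusted p = 0.256).

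Besides UFD1, the ubiquitin-pathway genes among the 25 were CUL2, USP14 and MARCHF6. CUL2 is the scaffold of the ubiquitin ligase that contains the VHL protein, and its intron of 8136 nt at chromosome 10, 35063063 to 35071198, had no boundary read in the control against 127 and 50 in sh1. Retention was 0, 0, 9.63 and 3.40%, and the intron was covered over 32.1 and 24.3% of its bases in the control and over its whole length in both sh1 libraries (edgeR adjusted p = 3.35e-14). Of the 393 introns, 7 had no boundary read in the control. USP14, a deubiquitinase of the proteasome, stood at 0.937, 0.667, 19.5 and 6.85% (chromosome 18, 198133 to 199201, edgeR adjusted p = 7.96e-15). MARCHF6, a ubiquitin ligase of the endoplasmic reticulum, stood at 0.502, 1.08, 22.2 and 8.44% (chromosome 5, 10402140 to 10402383, edgeR adjusted p = 1.16e-18).

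Others of the 25 lay outside these groups. DDX18, a nucleolar helicase, had 1.05, 0.887, 27.1 and 10.3% at chromosome 2, 117829467 to 117830581 (edgeR adjusted p = 2.15e-16). PPME1, a methylesterase of protein phosphatase 2A, had 0.457, 0.648, 19.5 and 6.65% at chromosome 11, 74203822 to 74204352 (edgeR adjusted p = 8.42e-16). DONSON, which takes part in starting DNA replication, had 2.17, 2.94, 40.1 and 13.9% at chromosome 21, 33581501 to 33581950 (edgeR adjusted p = 4.45e-13). In each of these the lower sh1 library was several times the higher control. NUP107, a scaffold nucleoporin, had 0, 0.192, 6.91 and 1.53% at chromosome 12, 68689054 to 68689532 (edgeR adjusted p = 6.46e-14). NAA15, the auxiliary subunit of an N-terminal acetyltransferase, had 0.156, 0.401, 13.6 and 4.82% at chromosome 4, 139336953 to 139340911 (edgeR adjusted p = 1.94e-13). SMPD4, a sphingomyelinase, and SMPD4BP were both called, at 1.72, 1.87, 31.4 and 14.9% and at 1.43, 1.36, 42.3 and 27.9%. They are near-identical copies on chromosome 2, so reads may be split between them and both values are uncertain.

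**Figure D5:**
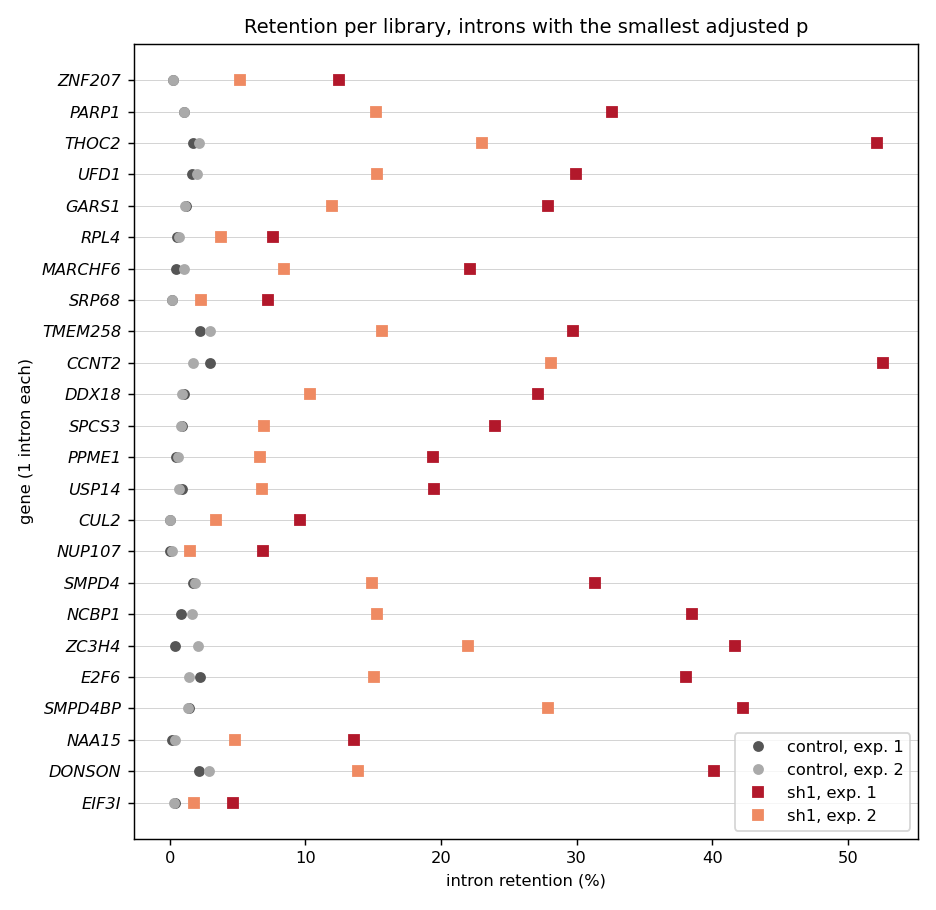
Retention (percent) in each of the 4 libraries for 24 of the 25 introns with the smallest adjusted p, 1 per gene. Grey circles are control and coloured squares sh1. Every square lies to the right of both circles of its row, which the choice of these introns required, and experiment 1 of sh1 is the highest value in all 24.

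Outside the 25, the largest differences of mean retention among introns with at least 100 reads were in CUEDC1, C5orf34, CCDC134, CNEP1R1 and IFT122. CCDC134 stood at 0.699, 3.06, 59.2 and 31.4% at chromosome 22, 41808994 to 41809878 (edgeR adjusted p = 6.15e-08). CNEP1R1, a regulator of lipin, stood at 6.27, 6.77, 59.0 and 40.9% at chromosome 16, 50033507 to 50034101 (edgeR adjusted p = 1.23e-06). Both kept their call without any single library. CUEDC1 had the highest level, 89.9% in sh1 experiment 1, against 22.4 and 25.3% in the control and 52.5% in sh1 experiment 2 (edgeR adjusted p = 0.0210), on 10 to 64 spliced reads a library. C5orf34 stood at 15.7, 15.6, 68.6 and 53.3% and the ciliary transport gene IFT122 at 24.7, 30.6, 78.3 and 63.4% (edgeR adjusted p = 0.00380 and 0.00631). Without sh1 experiment 1 the edgeR adjusted p was 1 for CUEDC1, 0.725 for C5orf34 and 1 for IFT122. Without control experiment 1 it was 0.388, 0.0882 and 0.278, and without control experiment 2 it was 0.115, 0.0966 and 0.0545.

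Of the 13 tested proteins of the minor spliceosome only RNPC3, which binds U12 RNA, held a more retained intron. It stood at 7.49, 5.63, 38.5 and 28.2% at chromosome 1, 103551074 to 103551720 (log2 change 2.83 ± 0.628 SE, edgeR adjusted p = 0.00304). RNPC3 no longer passed without control experiment 2 (edgeR adjusted p = 0.190) or sh1 experiment 1 (0.5). None of 17 tested genes for 3′ splice site recognition in the major spliceosome was called, nor of 21 erythroid genes or 13 markers of other blood cells and tissues. With 2.26% of all genes called, these counts of 0 in small lists are no result about the lists. Ion transporters of the SLC9A and SLC12A families were called in 3 of 8 tested genes (37.5%, beside 2.26% of all genes). Of the chloride cotransporters called, SLC12A4 stood at 3.75, 3.60, 40.3 and 17.6% and SLC12A7 at 4.28, 4.18, 25.1 and 13.5%. Their edgeR adjusted p were 0.000584 and 0.00720, and 0.837 and 1 without sh1 experiment 1. SLC12A7 was also lost without control experiment 1 (0.192) or 2 (0.216). Genes recalled from general knowledge to hold a U12-type intron held a more retained intron in 38 of 59 tested (64.4%), against 2.26% of all genes with a tested intron. That list was written with earlier results of these libraries known, so its share is not independent evidence. It overlaps the other lists: the 38 include the 4 repair genes and the 8 kinases counted above, UFD1, THOC2, E2F3 and E2F6.

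Nucleoporins and cullins were counted after their values had been seen. Of 30 tested nucleoporins 6 held a more retained intron (20%, beside 2.26% of all genes) and NUP93 a less retained one (0.0876% of all genes). NUP160 and AHCTF1 reached 47.1 and 14.2% and 58.5 and 30.1% in sh1, from 3.02 and 1.84% and from 4.73 and 5.06% (edgeR adjusted p = 5.67e-11 and 6.66e-13). The other members called were NUP107, NUP155, NUP205 and NUP210, and the last 3 were lost without sh1 experiment 1 (edgeR adjusted p = 1, 0.132 and 0.631). NUP155 was also lost without control experiment 2 (0.889). Of 8 cullins CUL2, CUL4A and CUL4B were called (37.5%, beside the same 2.26%). CUL4B stood at 0.866, 0.851, 25.7 and 7.87% and CUL4A at 2.57, 2.78, 18.9 and 8.52%. Without sh1 experiment 1 neither passed (edgeR adjusted p = 0.138 and 0.948), and CUL4A was also lost without control experiment 1 (0.0846) or 2 (0.0683).

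Fewer introns were less retained, and those with the smallest adjusted p lay in 3 settings. In DDX39B, the helicase that recruits export factors to spliced RNA, the intron at chromosome 6, 31538856 to 31539146, went from 3.23 and 3.43% to 0.622 and 0.576% (log2 change -2.51 ± 0.398 SE, edgeR adjusted p = 3.23e-07). Boundary reads fell from 219 and 210 to 59 and 44 while spliced reads were 3276, 2953, 4711 and 3797. That call held without any single library, but genes overlap there and its assignment to DDX39B is uncertain. In the beta-globin locus on chromosome 11, an intron of the pseudogene HBBP1 (5243329 to 5243449) went from 21.4 and 14.8% to 1.81 and 1.97% (edgeR adjusted p = 8.74e-12). Here boundary reads were 55, 47, 74 and 57, and it was the spliced reads that differed, at 101, 135, 2010 and 1415. An unnamed intron of the locus (5232799 to 5233990) had 7, 25, 1829 and 1159 spliced reads, nearly the 8, 29, 1828 and 1155 of the HBB intron. Whether the same reads were counted for both was not tested. The third setting was introns with few boundary reads in sh1. SKIC2, a helicase of the decay machinery, had 53 and 3 boundary reads in the control and none in sh1, and its call was lost without control experiment 1 (edgeR adjusted p = 1). NUP93 had 1, 18, 0 and 0 boundary reads and was lost without control experiment 2 (1), sh1 experiment 1 (0.266) or sh1 experiment 2 (0.135). LOC105377460 had 13, 8, 3 and 2, with 460, 833, 2539 and 2006 spliced reads, so that here too spliced reads were higher in sh1, and it was lost without control experiment 1 (0.272). USP20, a deubiquitinase chosen after its values were seen, stood at 24.3, 26.8, 8.85 and 9.40% at chromosome 9, 129858113 to 129858466 (edgeR adjusted p = 0.0123). The USP20 call was lost without any 1 library, at 0.168 and 0.385 without the controls and 0.343 and 0.0933 without the sh1 libraries. Both sh1 libraries lay below both controls in 12 of the 14 introns, against 12.9% of all tested introns, which again follows largely from the call.

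The balance between the 5′ and the 3′ boundary was tested in 38172 introns with enough boundary reads, and 0 passed by edgeR's quasi-likelihood test. The lowest adjusted p was 0.0502, and 1702 introns (4.46%) had an unadjusted p under 0.05. Of the 373 more retained introns in that test 78 had an unadjusted p under 0.05 (20.9%), 187 had a change towards the 3′ boundary, and the median log2 change was 0.00. With the experiment number as a block 8 introns passed towards the 3′ and 2 towards the 5′ boundary, and without control experiment 1 a single intron passed. TMEM258 had the smallest p: its 5′ boundary had 410, 452, 1780 and 1357 reads and its 3′ boundary 106, 97, 1046 and 655 (log2 change of 3′ over 5′ 1.18, SE 0.160, edgeR adjusted p = 0.0502). In GARS1 the intron after the retained one, at 30622463 to 30626233, had 71, 89, 197 and 132 reads at the 5′ boundary and 1, 2, 84 and 34 at the 3′ boundary (edgeR adjusted p = 0.0502). In the less retained DDX39B intron the 5′ boundary went from 137 and 161 to 5 and 9 reads and the 3′ boundary from 82 and 49 to 54 and 35 (edgeR adjusted p = 0.0502). PDE6D completed the 4 with the smallest p in that direction. In the other direction TNPO1, a nuclear import receptor, had 11, 16, 243 and 94 reads at the 5′ boundary and 85, 131, 350 and 208 at the 3′ boundary (edgeR adjusted p = 0.0795). EIF3K had 14, 14, 590 and 184 at the 5′ and 45, 84, 738 and 215 at the 3′ boundary (edgeR adjusted p = 0.114). LSM12 and IRF3 followed, with edgeR adjusted p of 0.299 and 0.530.

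The genes that held a more retained intron had no common direction of change in their level. Over the 309 genes the median log2 fold change of spliced reads summed per gene was 0.03 (interquartile range -0.19 to 0.28), against 0.00 (-0.28 to 0.27) over all 17160 genes. The change was below 0 in 142 of the 309 (46.0%) and in 49.4% of all genes. edgeR's quasi-likelihood test called 0 genes anywhere, with 1146 (6.68%) at an unadjusted p under 0.05, 40 of them among the 309 (12.9%), 19 lower and 21 higher. DESeq2 called 90 genes higher (0.524%) and 34 lower (0.198%), of which 5 and 1 were among the 309. The 5 higher were MORC3, CNST, ZC3H4, AHCTF1 and RPL7AP82, and the lower one was ZPR1, at 180 and 149 CPM in the control and 57.6 and 87.6 CPM in sh1. Spliced reads across the called introns themselves were lower in 296 of 393 (75.3%), with a median log2 change of -0.20, while the other introns of the same genes had a median of 0.11 and were lower in 36.3%. Spliced reads also enter the ratio on which the introns were called, so fewer of them favour a call. This contrast is therefore not independent of the calls. PARP1 stood at 675, 963, 523 and 810 CPM and THOC2 at 297, 304, 412 and 335 CPM, neither called by either tool. TMEM258 was lower in both sh1 libraries, at 309.3, 201.5, 101.5 and 128.0 CPM, with a DESeq2 adjusted p of 0.0666.

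Besides ZRSR2, the genes with the smallest edgeR p were not among the 309. ITGA2B stood at 43.6, 43.9, 94.7 and 82.3 CPM (log2 change 1.02 ± 0.157 SE, edgeR adjusted p = 0.718, DESeq2 adjusted p = 4.05e-05). FAT1, a large cadherin, stood at 3.30, 4.42, 11.8 and 13.0 CPM (DESeq2 adjusted p = 1.02e-05). PHEX and the cytokine receptor CRLF2 were low in the control, at 0.0509 and 0.0659 CPM and at 0.318 and 0.351 CPM, and reached 0.817 and 0.877 CPM and 9.16 and 2.42 CPM in sh1. In the other direction the pseudogene SMG1P7 stood at 110 and 113 CPM in the control and 49.7 and 54.1 CPM in sh1 (log2 change -1.11 ± 0.143 SE, edgeR adjusted p = 0.718, DESeq2 adjusted p = 1.34e-08). It has near-identical copies, so its value is uncertain. MYL6B, a myosin light chain, stood at 96.5, 93.3, 44.6 and 49.5 CPM (DESeq2 adjusted p = 0.000200), and CIMIP4 had 64 and 90 spliced reads in the control and none in either sh1 library. In each of these genes the groups did not overlap. They were picked for the smallest p, so this separation follows largely from the choice. The share of all genes with such a separation is not given here.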

How the data were processed

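RNA of K562 cells with a control shRNA or the first ZRSR2 shRNA was compared over 2 libraries each. Per the file headers, the authors deposited for each library counts of boundary and spliced reads per intron, a fraction of bases covered, and a percent (MSI, called retention here). The percent was recomputed from the counts (largest deviation 2.8e-14). Per the submitters' processing notes the build is hg19; the aligner, the counting tool and the gene models used are not given in the sources used here. Gene names were taken by position from RefSeq GRCh38 and covered 93.3% of introns. The spliced count of an intron includes reads whose gap spans it, on either strand, so nested and antisense introns share reads.

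For each library the boundary and the spliced reads entered as a pair of counts, with library as a factor. The shRNA effect was tested with edgeR 4.0.16 (R 4.3.3), quasi-likelihood test, Benjamini-Hochberg at 0.05, over introns with at least 20 reads on average. All 6 libraries, those of the second shRNA included, shared the spread (3 residual degrees of freedom, infinite prior degrees of freedom). Boundary balance paired 3′ with 5′ reads. Gene levels are spliced reads summed over introns that do not overlap, without 4217 introns repeating a neighbour's counts, after TMM scaling. DESeq2 1.42.0 and limma 3.58.1 were alternatives, among others given below. The fits were also run on simulated data in which every intron, or every gene, had the same spread. That run cannot show how introns that vary more than their peers are called.

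Named were ZRSR2, the 25 more retained introns with the smallest adjusted p, 5 with the largest further difference, 6 less retained, up to 3 called genes for each of 15 gene lists, and 4 in each direction for balance and genes. Some results named by this rule are not reported here. Members and lists were chosen with earlier results of these data known. The main tests did not use the experiment number. For the replicate block and for gains within an experiment, that number in the labels was taken as the pairing. Deviations of control and sh1 libraries had a correlation of 0.188 across 38625 introns.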

Additional observations from a re-analysis of the deposited data

How the results depend on the processing

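The 407 changed introns (393 more and 14 less retained) numbered 160 (154 and 6) with DESeq2, which gave no adjusted p for 41534 introns. They numbered 156 (152 and 4) among introns covered to at least 0.95, which tests fewer introns, 72 (70 and 2) where 2 times the smaller boundary count replaced the sum, and 0 (0 and 0) with limma, added after seeing the data. The lower-coordinate boundary alone gave 259 (254 and 5) and the higher-coordinate one 267 (5 less retained). The replicate block gave 517 more and 49 less retained, and 451 and 26 with the control and sh1 libraries alone. Leaving out 1 library gave 133 to 503 introns, 123 to 492 more retained and 9 to 27 less retained. For boundary balance the 0 calls became 10 (8 and 2) with the replicate block and 0 to 1 without 1 library. For genes the 0 edgeR calls became 124 (90 and 34) with DESeq2 and 0 to 1 without 1 library, and the replicate block gave 0. For RPS2 the log2 change was -0.0744 to 3.79 when 1 library was left out, the lowest without control replicate 2. For USP20 it turned to 0.48 with the lower-coordinate boundary alone and 0.51 with the smaller count doubled. The cause was not tested in these cases. Of the settings tried on single named introns, 831 kept direction and call, 216 kept direction only and 3 reversed; for named genes 108 stayed as they were and 12, all with DESeq2, passed. Introns with few boundary reads are measured with the least precision, and calls were lost without 1 library in introns of low and of high read count.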
